A study of Erysimum cheiri and Matthiola incana and Raphanus sativus with 44 samples.

Results

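Petals of 2 flower forms of Lobularia maritima (sweet alyssum) were compared: form P, labelled violet flower, and form W, labelled white flower. The loci described are the 1088 that reached at least 20 FPKM (fragments scaled by transcript length and by the mapped reads of a library) in both libraries of 1 form, out of 32160 loci in the table and 8799 that were tested because 1 of the forms had a mean of 1 FPKM or more. Of the 1088 loci, 643 reached 20 FPKM in both libraries of both forms, 257 through form P alone and 188 through form W alone. The plants were grown in a greenhouse, the petals were taken from flowers that were not yet fully open, and polyadenylated RNA was made into directional libraries. No genotype, cultivar, age or treatment is given for either form beyond the colour. Each form has 2 libraries, called P1, P2, W1 and W2, among the 44 libraries and 10 species of the series. The series text calls them biological replicates without naming plants or harvests, so p-values measure the spread between these libraries. Reads were assigned to the genes of Arabidopsis thaliana, and a low value in Lobularia can therefore reflect sequence divergence from Arabidopsis.

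Violet and pink petal colours in the crucifer family come mostly from anthocyanins, which are made from phenylalanine through the phenylpropanoid and flavonoid pathways and stored in the vacuole of epidermal cells. Chalcone synthase opens the flavonoid pathway, flavonol synthase draws its intermediates towards colourless flavonols, and dihydroflavonol reductase and leucoanthocyanidin dioxygenase lead towards anthocyanins. In Arabidopsis the late steps are switched on by a complex of MYB, bHLH and WD40 proteins, and carotenoids, made in the plastid, can be removed from white petals by carotenoid cleavage enzymes.

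The libraries were shallow, and W2 correlated least with the others. Low FPKM values fell on steps that are whole multiples of the worth of 1 read, and 2918 of 3950 loci above 0 in 3 or more libraries had such a step. A single read of a typical stepped locus was worth 3.07 FPKM in W1 and 3.92 FPKM in P1, so that 20 FPKM stands for about 6.51 reads in W1 and 5.11 reads in P1. The number of loci above 0 ran from 4967 in P1 to 5563 in W2. Over the 1088 loci the log2(FPKM + 1) values of W1 correlated with those of P1 at r = 0.69 and of P2 at 0.70, and with those of W2 at 0.48, while P1 and P2 correlated at 0.74. These correlations are across genes, which are not independent replicates. W2 was at least 2 log2 below the mean of the other 3 libraries at 129 loci, against 23 to 40 for each of the others, and at least 2 log2 above it at 69 loci, against 71 for P2, 34 for P1 and 27 for W1. The summed FPKM was 360976 in W1, 207692 in W2, 267597 in P1 and 1225400 in P2, so P2 also stood apart in this respect. Plastid loci held 47.6% of the FPKM in P2 and 1.77% to 8.67% in the other libraries. The 2 W libraries differed at the median locus by 0.82 log2 and the 2 P libraries by 0.53. In the other species with 2 forms read here, Orychophragmus violaceus, Iberis amara and Malcolmia maritima, the median gap within a pair ran from 0.18 to 0.79 by the same rule.

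No locus differed between the forms beyond the spread between libraries. The limma test on log2(FPKM + 1) called 0 of 8799 loci (0%) at an adjusted p under 0.05, the lowest adjusted p being 0.710, and 374 loci (4.25%) had an unadjusted p under 0.05. Of the 1088 loci, 0 were called and 40 had an unadjusted p under 0.05. In limma voom on the reads recovered from the steps, 0 of 2918 loci were called and 99 had an unadjusted p under 0.05. The count of calls was also 0 without P1 or P2, but it was 1047 without W2 and 1476 without W1, of which 1040 and 1352 were loci listed at 0 in both P libraries. With 2 libraries against 2, an exact two-sided permutation test of a single gene cannot give less than 0.333. The differences below are therefore descriptions of 4 libraries, and a gene that was not called is not shown to be equal in the forms.

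A difference of at least 1 log2 between the means of the forms was found at 318 of the 1088 loci, of which 115 had the forms apart from both W libraries and 138 differed through W2 alone. Forms were counted as apart where both P libraries lay on the same side of both W libraries and the mean of P was at least 1 log2 from each W library. By this rule 65 loci (5.97%) were higher in P and 50 (4.60%) were lower in P, beside 4.07% and 7.33% of all tested loci. A difference was counted as from W2 alone where both P libraries lay on the same side of W2 and their mean was at least 1 log2 from W2 but not from W1 in that direction, which held for 138 loci (12.7%, beside 17.4% of all tested loci). The order of these counts depends on the minimum FPKM. At 10 FPKM the forms were apart at 123 loci higher in P and 123 lower against 242 from W2 alone. At 50 FPKM the counts were 26 and 10 against 69. Within the classes set at 1 log2, the means differed by at least 2 log2 at 38 and 20 of the loci with the forms apart. The same held for 32 of those from W2 alone. With the rule itself set at 2 log2, W2 alone held 59 loci. Loci with the forms apart by that rule were not counted, but they must lie among the 38 and 20, so the order was not turned. The mirror count for W1 alone was 39 loci (3.58%, beside 9.89%). At 26 further loci (2.39%, beside 16.2%) the 2 P libraries did not both lie on the same side of a W library. Ties count here too, such as a P library and a W library both listed at 0. Entry through 1 form ties these counts to the choice of loci, since 51 of the 65 higher loci entered through P alone and 47 of the 50 lower loci through W alone. Among the 643 loci at 20 FPKM or more in all 4 libraries, 14 were higher in P with the forms apart, 3 were lower, 47 differed through W2 alone and 12 through W1 alone.

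**Figure D1:**
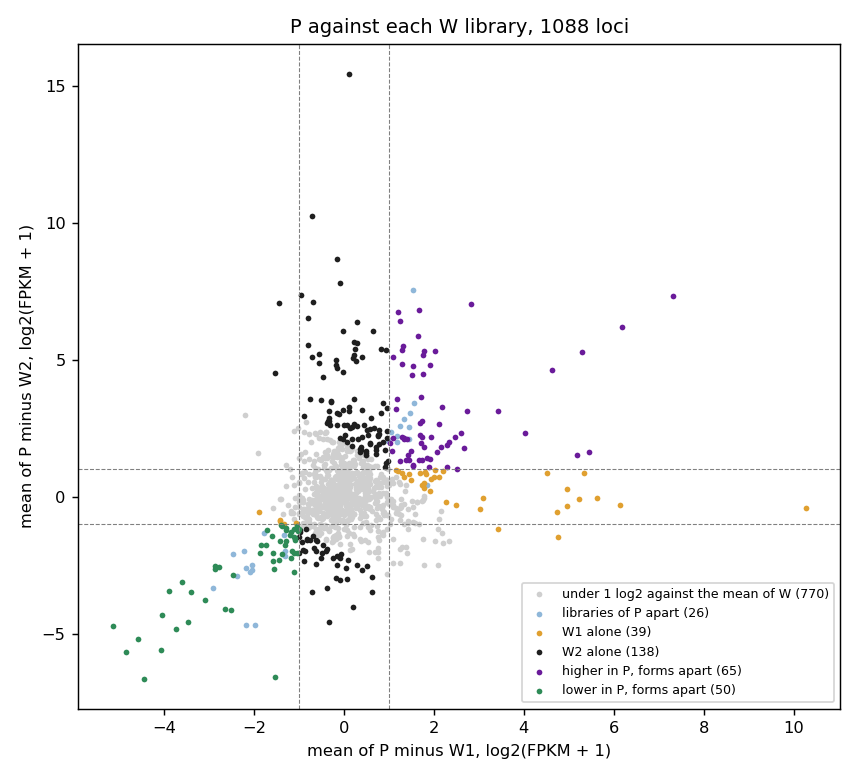
Each point is 1 of 1088 loci, with the mean of the 2 P libraries minus W1 on the horizontal axis and minus W2 on the vertical axis, both in log2(FPKM + 1), coloured by class; dashed lines mark 1 log2. The 138 points of the W2 alone class spread along the vertical axis, while the 65 and 50 points with the forms apart lie in the upper right and lower left corners.

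With W1 as the only white library, P was apart by at least 1 log2 and higher at 159 loci and lower at 79, 238 in all. With W2 as the only white library, P was higher at 286 loci and lower at 193, 479 in all. Of these, 115 loci pointed the same way against both W libraries, and at 28 loci P lay above one W library and below the other.

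**Figure D2:**
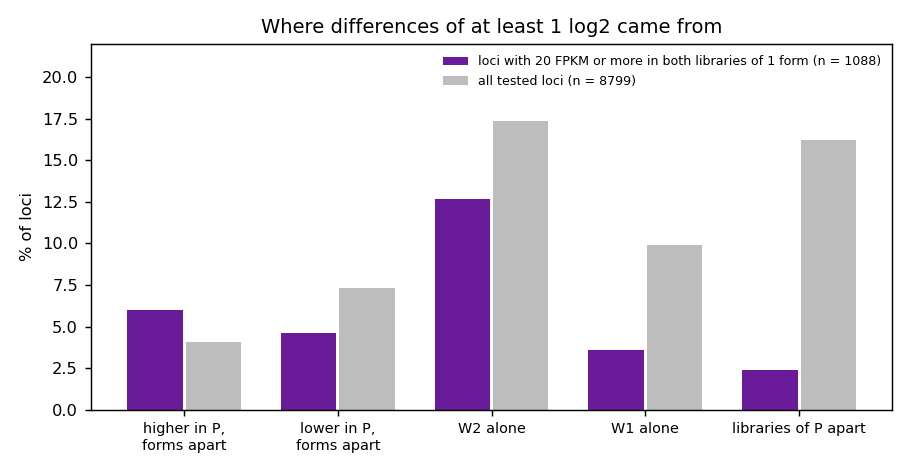
Bars give the share of loci in each class as a percentage, for the 1088 loci with at least 20 FPKM in both libraries of 1 form and for all 8799 tested loci; loci under 1 log2 are not drawn. The W2 alone class is the tallest in both sets, at 12.7% and 17.4%.

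Of 391 genes in 36 named lists, 81 were among the 1088 loci, and 8 of these 81 had the forms apart. This share is close to that of the 1088 loci, where 115 had the forms apart. Of all tested loci, 4.07% were higher and 7.33% lower in P by the same rule. Higher in P were TTG2 and PRK. Lower in P were FLS1, SEP3, SAG21, ELIP1, ACT7 and ZISO. All 8 had an adjusted p of 0.710 in limma. TTG2 and PRK entered through P alone, and FLS1, SAG21, ELIP1, ACT7 and ZISO through W alone. For these genes at least 1 library of the other form had to be under 20 FPKM, so part of the gap was fixed by their entry. SEP3 entered through both forms.

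TTG2, a WRKY transcription factor that acts in Arabidopsis trichomes and in the tannin layer of the seed coat, was at 4.21 FPKM in W1, 16.2 in W2, 97.2 in P1 and 73.1 in P2. Both P libraries lay well above both W libraries, by 4.03 log2 against W1 and 2.31 log2 against W2. The recovered reads were 1, 3, 18 and 14 in the same order, and the P minus W difference was 3.17 log2 (SE 0.83, unadjusted p = 0.0153 in limma). PRK, phosphoribulokinase of the Calvin cycle, was at 13.7 FPKM in W1, 26.1 in W2, 78.6 in P1 and 109.8 in P2. It was higher in P by 2.24 log2 (SE 0.64, unadjusted p = 0.0213 in limma), but its entry through P alone required a W library under 20 FPKM. It was the only photosynthesis gene of 10 among the 1088 loci with the forms apart.

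FLS1, flavonol synthase, was at 40.9 FPKM in W1, 121 in W2, 5.24 in P1 and was listed at 0 in P2. Both P libraries were low, and the recovered reads were 10, 23, 1 and 0. The difference was -4.84 log2 on the log2(FPKM + 1) scale (SE 1.22, unadjusted p = 0.0132 in limma), and it was -4.07 against W1 and -5.61 against W2, so it did not come from W2 alone. SEP3, a MADS-box factor that acts with the petal identity genes, was at 234 FPKM in W1, 269 in W2, 138 in P1 and 74.8 in P2. The 2 W libraries lay close together and above both P libraries, and the difference was -1.30 log2 (SE 0.56).

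SAG21, a small late-embryogenesis-like protein induced by senescence and stress, was at 47.5 FPKM in W1, 33.3 in W2, 0 in P1 and 15.1 in P2, from 4, 2, 0 and 1 reads. ACT7, an actin of growing tissue, was at 27.9 FPKM in W1, 54.9 in W2, 7.91 in P1 and 19.1 in P2, from 9, 14, 2 and 5 reads. ZISO, a carotene isomerase, was at 37.3 FPKM in W1, 31.9 in W2, 26.6 in P1 and 0 in P2. The ZISO difference of -2.76 log2 (SE 1.73) rests on the 0 in P2, since P1 lay near the W libraries. ELIP1, an early light-induced protein of the chloroplast, was at 78.6 FPKM in W1, 2622 in W2, 42.4 in P1 and 16.3 in P2. Its P minus W difference was -1.54 log2 against W1 and -6.58 log2 against W2, so most of its difference of -4.06 log2 (SE 1.81) came from W2.

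**Figure D3:**
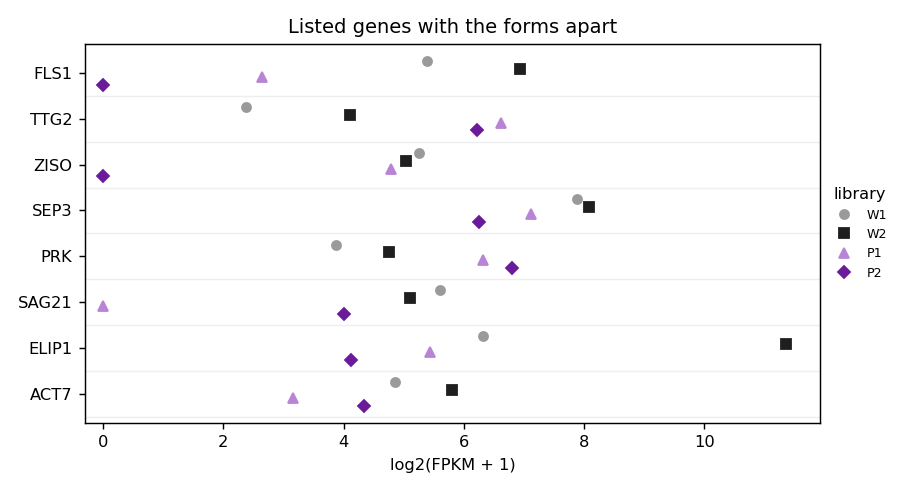
Horizontal positions give log2(FPKM + 1) of the 8 listed genes with the forms apart, with 1 marker for each library. Both P markers lie to the right of both W markers for TTG2 and PRK and to their left for the other 6, and the ELIP1 value of W2 stands far from W1.

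Of the 8 phenylpropanoid, flavonoid and late anthocyanin genes among the 1088 loci, 6 had a mean of P above that of W, and 0 were called. Across the 1088 loci P was above W at 615 (56.5%). Of the genes with P above W, CHS, DFR, LDOX and AT4G22870 entered through P alone, which favours that direction. F3H and FLS1, with P below W, entered through W alone. At the entry of the pathway, PAL1, phenylalanine ammonia-lyase, was at 40.3 FPKM in W1, 60.6 in W2, 144 in P1 and 47.2 in P2, with P2 between the W libraries. CHS, chalcone synthase, was at 7.16 FPKM in W1, 54.7 in W2, 64.1 in P1 and 31.0 in P2, from 2, 12, 14 and 7 reads. W1 alone was low for CHS, and P2 was below W2. F3H, flavanone 3-hydroxylase, was at 27.9 FPKM in W1, 45.9 in W2, 40.8 in P1 and 9.87 in P2, with P2 the lowest at 2 reads. Of the 12 early flavonoid and flavonol genes listed, 6 were above 0 in any library and 3 were among the 1088 loci, of which FLS1 was lower in P with the forms apart.

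Of the late anthocyanin genes 4 were among the 1088 loci. DFR, LDOX and AT4G22870 entered through P alone, so that at least 1 W library had to be under 20 FPKM, and TT19 entered through both forms. DFR, dihydroflavonol reductase, was at 11.9 FPKM in W1, 45.8 in W2, 40.7 in P1 and 44.3 in P2, so W2 stood with the P libraries. LDOX, leucoanthocyanidin dioxygenase, was at 8.75 FPKM in W1, 22.4 in W2, 39.3 in P1 and 48.9 in P2, from 2, 4, 7 and 9 reads. Both P libraries were above both W libraries for LDOX, by 2.20 log2 against W1 and by 0.94 log2 against W2, which is under the minimum of 1, and the difference was 1.57 log2 (SE 0.73, unadjusted p = 0.0916 in limma). AT4G22870, an LDOX-like gene whose identifier adjoins that of LDOX, was listed at 0 in W1 and at 85.4 FPKM in W2, 141 in P1 and 33.6 in P2.

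TT19, a glutathione S-transferase that carries anthocyanin towards the vacuole, was at 38.3 FPKM in W1, 102 in W2, 249 in P1 and 115 in P2. All 4 values were in the order of W below P, but W2 and P2 lay close together, and the difference was 1.42 log2 (SE 0.78, unadjusted p = 0.133 in limma). Late anthocyanin genes summed to 59.0 FPKM in W1, 259.9 in W2, 478 in P1 and 246 in P2, so that W2 was above P2.

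**Figure D4:**
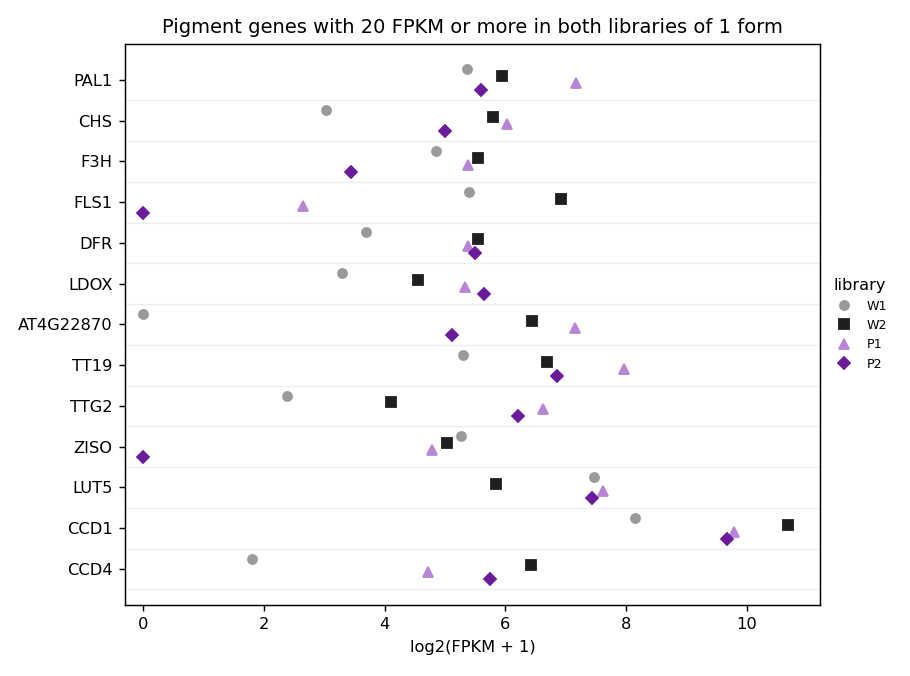
Horizontal positions give log2(FPKM + 1) of the 13 pigment genes that are among the 1088 loci, with 1 marker for each library. W1 is the left-most library for CHS and the late anthocyanin genes, and FLS1 has both P libraries to the left of both W libraries.

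Regulators of the pathway were scarce. Of 12 activators listed, TTG2 alone was among the 1088 loci and 4 were above 0 in any library, and of 10 repressors 3 were above 0 and 0 were among them. The MYB activators PAP1 and PAP2 and the bHLH factor TT8 were listed at 0 in all 4 libraries. MYB113, a related MYB, was at 10.2 FPKM in P2 and at 0 in the other 3 libraries. The bHLH factor EGL3 was at 15.3 FPKM in W1, 67.3 in W2, 13.0 in P1 and 9.41 in P2, with W2 alone high. Since reads were assigned to Arabidopsis genes, a listed 0 does not show that the Lobularia gene was silent.

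Carotenoid genes showed no common direction. Of the 17 listed, 16 were above 0 in any library and 4 were among the 1088 loci. LUT5, a carotene hydroxylase, was at 175 FPKM in W1, 56.7 in W2, 194 in P1 and 173 in P2, with W2 alone low and the mean difference under 1 log2. CCD1, a carotenoid cleavage dioxygenase, was at 283 FPKM in W1, 1638 in W2, 879.6 in P1 and 809 in P2. Both P libraries lay between the W libraries. CCD4, the cleavage enzyme that removes carotenoids in white petals of related plants, was at 2.50 FPKM in W1, 84.9 in W2, 25.5 in P1 and 52.4 in P2, from 1, 27, 8 and 17 reads. The 2 white libraries thus held the lowest and the highest CCD4 value.

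Petal identity genes were detected in all 4 libraries. Of 8 petal identity genes 6 were among the 1088 loci, and they are MADS-box factors that specify petals and stamens or act with those that do. AP3 was at 742 FPKM in W1, 176 in W2, 509 in P1 and 654 in P2, and PI, its partner, at 102 in W1, 263 in W2, 144 in P1 and 50.5 in P2. W2 was the lowest library for AP3 and the highest for PI. AP1 was at 80.2 FPKM in W1 and in W2, 183 in P1 and 77.4 in P2. Of the carpel and ovule markers AG, SHP1 and SHP2 were listed at 0 in all 4 libraries, and STK at 7.37 FPKM and CRC at 7.64 FPKM were seen in P2 alone. Of 16 pollen and tapetum markers VGD1 alone was above 0, at 0 FPKM in W1, 17.5 in W2, 8.88 in P1 and 11.5 in P2. UBC21, a gene used in every cell, was also listed at 0 in all 4 libraries, so markers at 0 do not show that carpel or stamen tissue was absent. In such bulk samples fewer cells of a type and less RNA per cell cannot be told apart.

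MYB21, MYB24 and MYB57, which in Arabidopsis act downstream of jasmonate in the growth of stamens and petals, were all among the 1088 loci. MYB21 was at 569 FPKM in W1, 541 in W2, 530.5 in P1 and 486 in P2. The 4 values lay close together, with a difference of -0.13 log2 (SE 0.44). Its relative MYB24 was at 3498 FPKM in W1, 52.1 in W2, 1163 in P1 and 1265 in P2. The MYB24 difference of 1.49 log2 came from W2 alone, since W1 was above both P libraries. MYB57 was at 28.3 FPKM in W1, 99.1 in W2, 31.7 in P1 and 131 in P2, without separation of the forms.

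Among the 138 differences from W2 alone, W2 was low at 96 loci and high at 42. This balance follows the choice of loci, since 70 of the 96 low loci entered through P alone, and the split was 26 low to 21 high among the 643 loci at 20 FPKM or more in all 4 libraries and 381 low to 1147 high among all tested loci. The median P minus W2 difference was 2.82 log2 at the low loci and -2.13 log2 at the high ones. The median P minus W1 difference was 0.22 and -0.48 log2. This contrast was fixed by the rule of the class, which asks for at least 1 log2 from W2 but not from W1. Of the 81 listed genes, 9 had W2 alone high and 5 had W2 alone low.

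On the high side the list of heat shock genes held 1 of the 9 and that of aquaporins 4. HSC70-1, a constitutive cytosolic chaperone, was at 106 FPKM in W1, 731 in W2, 65.9 in P1 and 63.8 in P2. It was the only heat shock gene of 13 among the 1088 loci, because the inducible ones were low in 3 of the 4 libraries. W2 was the highest library in all 12 heat shock genes above 0, beside 116 of the 241 listed genes above 0. These 241 include the heat shock genes themselves, and the share over all tested loci was not counted. The heat shock genes summed to 114 FPKM in W1, 4059.8 in W2, 77.4 in P1 and 69.4 in P2. HSP18.2, a small heat shock protein, was at 1427 FPKM in W2 and was listed at 0 in the other 3 libraries. HSP101, a chaperone that dissolves aggregates, was at 1.59 FPKM in W1, 306 in W2 and 0 in both P libraries. HSP70 was at 6.76 FPKM in W1, 534 in W2, 11.5 in P1 and 5.55 in P2, from 3, 189, 4 and 2 reads. W1, the other white library, was nearer to the P libraries than to W2 for these genes, but it was above both P libraries for HSC70-1 and HSP101. By the rule above HSP101, which is not among the 1088 loci, had the forms apart. Its P minus W difference was -1.37 log2 against W1 and -8.26 log2 against W2.

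Aquaporins, the water channels of the plasma membrane and the vacuole, were also highest in W2, in 8 of 8 among the 1088 loci and in 12 of 12 above 0. Across the 1088 loci W2 was the highest library at 30.2%. Among the 241 listed genes above 0, which include the aquaporins and heat shock genes, it was highest at 116. The share over all tested loci was not counted. PIP2;7 of the plasma membrane was at 182 FPKM in W1, 819 in W2, 163 in P1 and 180.4 in P2. TIP1;1 of the vacuolar membrane was at 243 FPKM in W1, 968 in W2, 170.1 in P1 and 249.7 in P2. W1 lay inside or near the range of the P libraries for both. PIP2;8 and TIP2;1 also belonged to the W2 alone class, and the other 4 had a mean difference under 1 log2. TIP2;1 was at 130 FPKM in W1, 468 in W2, 24.8 in P1 and 282 in P2. Its P libraries thus lay on both sides of W1, and its mean difference also depends on the low P1. The summed FPKM of the list was 1069 in W1, 5250.3 in W2, 1113 in P1 and 1544 in P2. Reads of near-identical copies, such as those of the aquaporin and ribulose bisphosphate carboxylase small subunit families, can be split between genes in ways that the deposited values do not show.

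**Figure D5:**
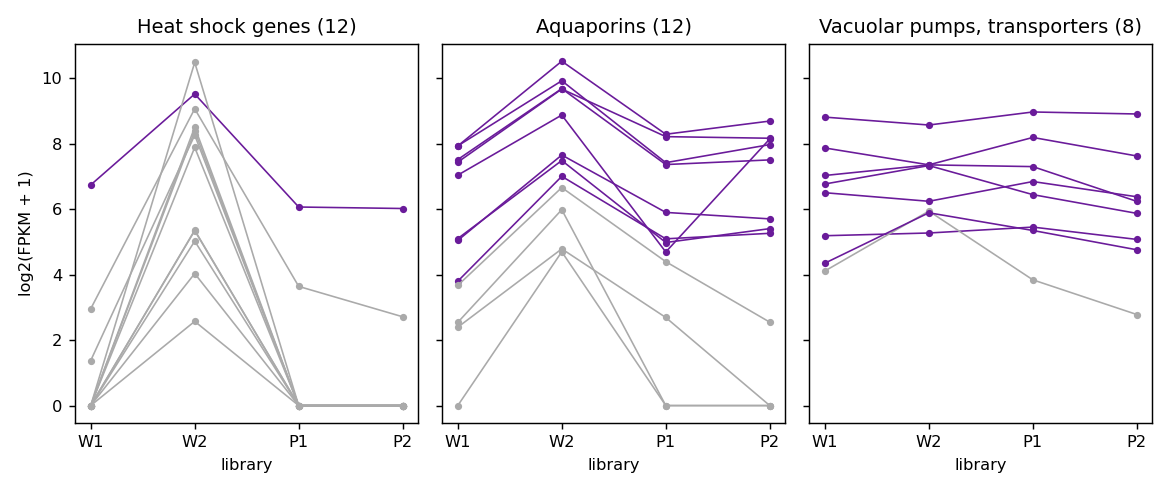
Lines join the log2(FPKM + 1) values of 1 gene across the 4 libraries, in purple for genes among the 1088 loci and in grey for others, for the 12 heat shock genes, 12 aquaporins and 8 vacuolar pump and transporter genes above 0. Every heat shock and aquaporin line has its highest point in W2, and 4 of the 8 vacuolar pump and transporter lines do.

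W2 alone was also high for UBQ10, a polyubiquitin gene, at 94.4 FPKM in W1, 729 in W2, 93.5 in P1 and 84.8 in P2. SUS1, a sucrose synthase, was at 51.0 FPKM in W1, 85.6 in W2, 29.0 in P1 and 23.8 in P2, with W1 also above both P libraries by 0.93 log2. CCOAOMT1, a lignin methyltransferase, and ESM1, a modifier of glucosinolate breakdown, were the other 2 of the 9. RCA, which activates the carbon-fixing enzyme, was at 924 FPKM in W1, 8226 in W2, 2041 in P1 and 2388 in P2, but its P minus W difference was -0.32 log2 because W1 and W2 lay on both sides of P.

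On the low side, W2 was listed at 0 at 28 of the 96 loci. STP1, a monosaccharide transporter, was at 71.1 FPKM in W1, 6.90 in W2, 69.8 in P1 and 70.9 in P2, from 26, 2, 20 and 21 reads. TIP41L, a gene often used as a reference because its level is steady, was at 56.6 FPKM in W1, 5.59 in W2, 55.8 in P1 and 48.6 in P2, from 13, 1, 10 and 9 reads. The other 3 libraries lay within a narrow band for both genes. LHCB1.1, a light-harvesting protein, was at 65.5 FPKM in W1, 0 in W2, 72.2 in P1 and 58.1 in P2. GRP7, an RNA-binding protein under control of the circadian clock, was at 219.5 FPKM in W1, 0 in W2, 68.8 in P1 and 265 in P2. Of the 11 clock genes above 0 in any library, W2 was the highest library at 3. W2 was listed at 0 for TOC1, PRR5, ELF3, ELF4, LUX and GRP7. P1 was listed at 0 for CCA1, LHY, ELF3, ELF4 and LUX, and P2 for CCA1 and ELF3.

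The 2 largest differences from W2 alone were at loci that the lists do not name. ATMG01380, on the mitochondrial genome, was at 40242 FPKM in W1, 0 in W2, 11989.5 in P1 and 158549 in P2. AT2G33830 was at 1959 FPKM in W1, 0 in W2, 818 in P1 and 1752 in P2. Mitochondrial loci held 0.877% of the FPKM in W2 and 5.27% to 17.5% in the other libraries, and the part of that gap in the ATMG01380 value was not tested.

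Among the differences from W1 alone, W1 was low at 33 loci and high at 6. Of the 33 low loci 24 entered through P alone, and among all tested loci the balance was the other way, with W1 low at 254 and high at 616. The listed genes were CHS, LDOX, AT4G22870, TT19, CCD4 and RBCS1A, a small subunit of the carbon-fixing enzyme at 60.9 FPKM in W1, 93.7 in W2, 149.8 in P1 and 186 in P2. CHS, LDOX, AT4G22870 and CCD4 entered through P alone, so a low W1 was fixed by their entry. Across the 1088 loci W1 was the lowest library at 22.4%.

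In several groups no gene among the 1088 loci was 1 log2 apart between the means of the forms. All 7 vacuolar pump and transporter genes among the 1088 loci had a mean difference under 1 log2. VHA-C, a subunit of the vacuolar proton pump, was at 448 FPKM in W1, 379 in W2, 499 in P1 and 478 in P2. AVP1, the vacuolar pyrophosphatase, was at 233 in W1, 162 in W2, 291 in P1 and 196 in P2. The 3 cell wall expansion genes and the 5 cuticle genes among the 1088 loci were also under 1 log2. XTH24, a wall-loosening enzyme, was at 299.9 FPKM in W1, 304 in W2, 274 in P1 and 186 in P2. Genes of the same lists outside the 1088 loci did pass 1 log2 in both directions. Examples are ABCC1 of the vacuolar list at -1.71 log2, GPAT4 of the cuticle list at 1.48 and XTH22 of the cell wall list at -3.16. Of 11 genes used in every cell, 8 were under 1 log2, ACT7 was lower in P with the forms apart, and UBQ10 and TIP41L differed through W2 alone in opposite directions. The summed FPKM of that list was 4168 in W1, 3402 in W2, 4282 in P1 and 4190.0 in P2.

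Among all loci with the forms apart, the highest in P were ATCG00360 and ATCG00780 of the plastid genome. ATCG00360 was listed at 0 in both W libraries and at 56.96 FPKM in P1 and 435 in P2. ATCG00780 was listed at 0 in both W libraries and at 60.3 FPKM in P1 and 86.2 in P2. The plastid locus ATCG00070 had the forms apart in the other direction, at 215 FPKM in W1, 258 in W2, 171 in P1 and 0 in P2. Its difference of -4.17 log2 (SE 2.54) rests on the 0 in P2, since P1 lay near the W libraries. Plastid loci held 47.6% of the FPKM in P2, and the part of that share in these values was not tested. The lowest in P were AT1G68825, at 20.8 FPKM in W1 and 98.1 in W2, and AT1G51060, at 27.5 FPKM in W1 and 49.9 in W2, both listed at 0 in P1 and P2. Of the 65 loci higher in P, 20 were listed at 0 in W2 and 6 in W1, and W2 was further from P than W1 at 39. Of the 50 lower in P, 14 were listed at 0 in P1 and 8 in P2, and W2 was further from P at 37. For comparison, W2 was further from P at 455 of the 770 loci under 1 log2 between the means of the forms.

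Steps were found only where the lowest library held 3 reads or fewer. For the 34 loci with a step that were higher in P, the median reads were 1.5 in W1, 1 in W2, 4.5 in P1 and 5 in P2. For the 34 loci with a step that were lower in P they were 7.5 in W1, 7 in W2, 2 in P1 and 2 in P2. The minimum of 20 FPKM cuts through a dense range, with 173 of the 1088 loci under 25 FPKM in the lower library of their better form and 236 other loci from 15 FPKM up. The nearest locus inside was AT1G53750 at 20.05 FPKM and the nearest outside AT1G64710 at 19.9995 FPKM.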

How the data were processed

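FPKM values per Arabidopsis locus were deposited for each library. Expression was computed against Arabidopsis, per the series text. TopHat, Cufflinks, Cuffdiff and DESeq stand in the submitters' processing notes, with no version. The genome build and the use of strand in counting are not given in the sources used here. Of 34133 entries in the table, 1973 with a dot in the identifier were left out. FPKM as deposited by the authors was used on the scale log2(FPKM + 1), which understates differences of low genes. limma 3.58.1 (R 4.3.3) was fitted to the 4 libraries with an intensity trend, with Benjamini-Hochberg adjustment over 8799 loci, and a locus was called at an adjusted p under 0.05. The procedure was checked on simulated data. Steps were accepted where 3 or more libraries lay within 0.1 of whole reads, the lowest at 3 reads or fewer and 1 read worth at most 12 FPKM in W1. The reads recovered per library ran from 6654 to 9424 and covered loci with 2.84% to 20.6% of the FPKM, so the full depth is unknown. Loci and lists were chosen with earlier results of these data known. Named were all pigment genes among the 1088 loci, up to 4 genes with the forms apart of each other list, and of all loci the 2 most extreme per direction. The other genes named were chosen after their values were seen. Gene symbols come from the hand-written lists, since no annotation was used.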

Additional observations from a re-analysis of the deposited data

How the results depend on the processing

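The count of loci called by limma was 0 with pseudocounts of 0.1 and 5, quantile scaling, median-ratio scaling, no filter on low FPKM, only the 1088 loci in the fit, no variance trend and voom on recovered reads, which was chosen after seeing the data. With the libraries left out in turn it ran from 0 to 1476. The lone W library is then assumed to vary like the P libraries, and 5 of the calls without W2 and 26 of those without W1 were among the 1088 loci. With the libraries left out in turn, loci higher in P with the forms apart numbered 66 to 286 (111 without P1, 159 without W2, 286 without W1). Those lower numbered 70 to 193 (83 without P2, 79 without W2, 193 without W1). Fewer libraries have to be apart in these counts, but the loci were not all the same. Of the 65 higher loci, 60 stayed in the class without P1 and 51 without P2. Of the 50 lower loci, 31 stayed without P1 and 35 without P2. The loci that dropped out thus rested on 1 P library. All 65 and 50 stayed without W1 or without W2. A minimum of 10 FPKM gave 123 higher, 123 lower and 242 from W2 alone. A minimum of 50 FPKM gave 26, 10 and 69, and a minimum of 2 log2 gave 59 from W2 alone. The pseudocount of 5 left 34 lower loci. Quantile scaling moved the median of all tested loci from -0.05 to 0.04 log2. Of 172 values of 18 named genes under the alternatives, 8 changed sign. With the libraries left out in turn, PAL1 ran from -0.066 (without P1) to 1.52 log2, F3H from -1.76 to 0.18 (without P2), and with their lowest values without W1 CHS ran from -0.29 to 2.48, DFR from -0.10 to 1.75, AT4G22870 from -0.30 to 6.13, CCD1 from -0.96 to 1.57 and CCD4 from -1.19 to 3.43. CCD1 was at -0.24 with quantile scaling. The replicate block also gave 0 calls, and deviations of same-numbered libraries correlated at -0.05, so the numbers were not read as pairs. Shallow depth limits every value near 20 FPKM.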

Other observations

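Some loci with identifiers next to named genes were picked out after their values were seen. AT5G40348, next to MYB24 in number, was at 6617 FPKM in W1, 1259 in W2, 11749 in P1 and 19029 in P2, higher in P with the forms apart, while MYB24 was not. AT3G12585, next to HSP70 in number, was at 8911 FPKM in W2 and was listed at 0 in the other 3 libraries. AT3G41768 was at 18188 FPKM in W1, 5026 in W2, 11988 in P1 and 237077 in P2, the highest value of the 1088 loci.

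The worth of 1 read in W2 over that in W1 depended on the locus more than in the P libraries. It was 1.24 at loci where 1 read is worth 1 FPKM in W1 and 1.31 at loci where it is worth 6 FPKM. For P1 the ratio went from 1.27 to 1.29, and for P2 from 1.23 to 1.24.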
